A study of Mus musculus with 12 samples.

Results

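The 9 genes described here encode parts of the complement system and were read from the deposited count table by symbol: C1qa, C1qb, C1qc, C3, C4b, Cfb, Cfp, C3ar1 and C5ar1. They are 9 of the 24421 symbols of that table, and all 9 passed the filter on low counts that left 12981 genes to test. RNA was sequenced from 12 mouse libraries of cells that the labels call macrophages, sorted from the tibialis anterior, a shin muscle, 5 days after it had been damaged with the snake toxin notexin. The sort kept PI- CD45+ CD11B+ LY6G/SIGLECF- cells: live leukocytes with the myeloid marker CD11B, gated to leave out neutrophils and eosinophils. The mice carried Ifngr1 wt/null or null/null, Ifngr1 being a chain of the interferon-γ receptor, and received daily intraperitoneal injections of anti-TNFa neutralizing antibody or an isotype control. Each of the 4 combinations of genotype and antibody had 3 libraries. Every library came from injured muscle and every mouse carried at least 1 null allele of Ifngr1, so the controls were wt/null with the isotype antibody, with no wt/wt mice and no uninjured muscle among them. The labels do not say that the libraries came from separate mice, so the p-values measure the spread between these libraries, which may be technical. Each title starts with 40 or 46, with 1 library titled 46 in each group. What it stands for is not stated.

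Complement is a cascade of plasma and locally made proteins that marks dying cells, debris and microbes for uptake by phagocytes. C1q binds such surfaces and starts the classical route, in which C4 and C2 form an enzyme that cleaves C3, while factor B and properdin drive the alternative route that amplifies C3 cleavage. The fragments C3a and C5a signal to myeloid cells through C3ar1 and C5ar1. Macrophages are a known source of C1q, and interferon-γ and TNF are known inducers of factor B and C3 in several cell types.

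Library totals ran from 23.2 to 29.9 M counts, and the member with the fewest counts, C5ar1, had 2139 to 4084 counts per library. The unit CPM is the count per M (mega) of counts, scaled by TMM, and genes were compared by edgeR's robust quasi-likelihood test with Benjamini-Hochberg adjustment over the 12981 genes. A gene was called at an adjusted p below 0.05. Ifngr1, the targeted gene, was at 226 to 250 CPM in the 6 wt/null libraries and 83.3 to 119 CPM in the 6 null/null libraries, an averaged log2 fold change of -1.36 ± 0.08 (SE, adjusted p = 1.43e-05). Tnf was at 20.7 to 105 CPM. All 10 macrophage markers were present in the tested set. Among them were Csf1r, the receptor of the macrophage growth factor, at 3157 to 4061 CPM, and Lyz2, encoding lysozyme. The list includes Itgam and Ptprc, which encode CD11B and CD45, on which the cells were sorted. All 8 dendritic cell markers and all 8 fibroblast markers also passed the filter, so passing it does not identify the cells. Fibroblast markers, led by Col3a1 and Col1a1, summed to 338 to 1773 CPM. A pair of libraries, wt/null anti-TNF replicate 2 and null/null anti-TNF replicate 1, both titled 40, stood apart. In these 2 the 8 dendritic cell markers summed to 492 to 554 CPM against 182 to 268 CPM in the other 10, the 7 osteoclast-type markers to 416 to 490 CPM against 901 to 3577 CPM, and the fibroblast markers to 338 to 472 CPM against 707 to 1773 CPM. Some of the values that rest on them are given with and without them. Estimates given once include them unless stated otherwise.

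By edgeR's test on all 12 libraries 0 of the 9 complement genes were called in each of the 9 comparisons fitted, while DESeq2 and limma voom each called 1, C4b by title number. In that comparison DESeq2 called 150 of all genes and limma voom 110. The 3 C1q genes held nearly the same level in every library. Of the edgeR log2 fold changes of the 9 genes, that of C4b by title number had the smallest unadjusted p: C4b was 91.6 to 140 CPM in the 4 libraries titled 46 and 159 to 272 CPM in the 8 titled 40. C5ar1 had its highest group levels in null/null mice, and C3 had its lowest group level in null/null mice under anti-TNF, but neither was called. In bulk samples such as these, fewer cells of a type and less RNA per cell cannot be told apart.

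**Figure D1:**
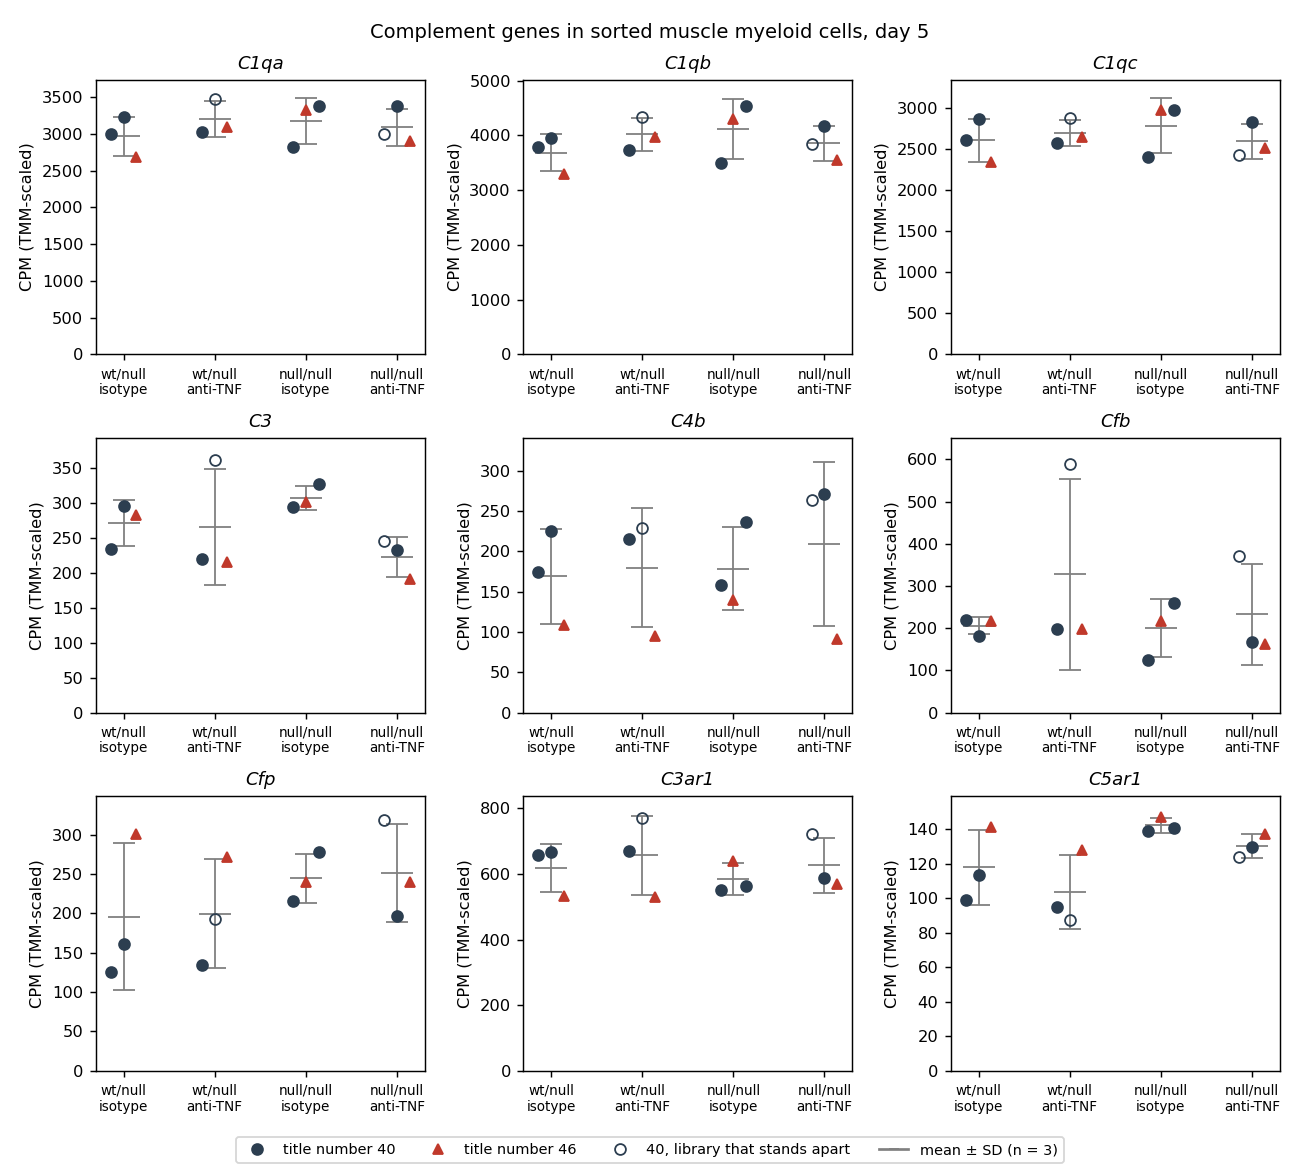
Level of each of the 9 complement genes in CPM (y axis, from 0) in the 4 groups (x axis), with each library as a point, triangles for title number 46, open circles for the 2 libraries that stand apart, and bars for the mean ± SD of 3. The C1q genes stay within 1.38-fold over all 12 libraries, Cfb reaches 590 and 371 CPM in the open circles, and each C4b triangle lies below the other points of its group.

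C1q is built from 3 chains, A, B and C, encoded by C1qa, C1qb and C1qc. The 3 genes lie side by side on the minus strand of chromosome 4, within 18.7 kb of build GRCm38 (mm10), at chr4:136880129-136898803. C1qb, the most abundant of the 9 genes, was at 3782, 3955 and 3303 CPM in the wt/null isotype libraries. It was at 3741, 4331 and 3975 CPM in the wt/null anti-TNF libraries. The null/null isotype libraries held 3496, 4305 and 4543 CPM, and the null/null anti-TNF libraries 3839, 4177 and 3544 CPM. The 4 groups overlapped fully, and the lowest library was a control. In order of mean, C1qb was at 3680 ± 337 CPM (SD, n = 3) in wt/null isotype, 3854 ± 317 in null/null anti-TNF, 4016 ± 297 in wt/null anti-TNF and 4115 ± 549 in null/null isotype, so each step in that order was smaller than the SDs on either side of it.

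C1qa ranged from 2691 to 3481 CPM and C1qc from 2337 to 2974 CPM over the 12 libraries. The highest library exceeded the lowest by 1.29-fold for C1qa, 1.38-fold for C1qb and 1.27-fold for C1qc, and the coefficients of variation were 7.99%, 9.54% and 8.51%. On average C1qa took 0.311%, C1qb 0.391% and C1qc 0.266% of a library's counts. Set against each other within each library, the chain genes kept close proportions. The ratio of C1qa to C1qb counts was 0.796 ± 0.0223 (SD, n = 12), from 0.746 to 0.819, and that of C1qc to C1qb counts was 0.682 ± 0.0256, from 0.633 to 0.724. These are ratios of counts and not of protein chains, and they were not corrected for transcript length. In the 10 libraries other than those that stand apart the ratios were 0.796 and 0.689. The lowest C1qc ratio belonged to null/null anti-TNF replicate 1, one of the 2 that stand apart, and the lowest C1qa ratio to null/null isotype replicate 3. Measured on centred log2 CPM over the 12 libraries, C1qa and C1qb differed by a root mean square of 0.04, C1qa and C1qc by 0.04 and C1qb and C1qc by 0.05, while every other pair of the 9 genes differed by 0.16 or more.

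**Figure D2:**
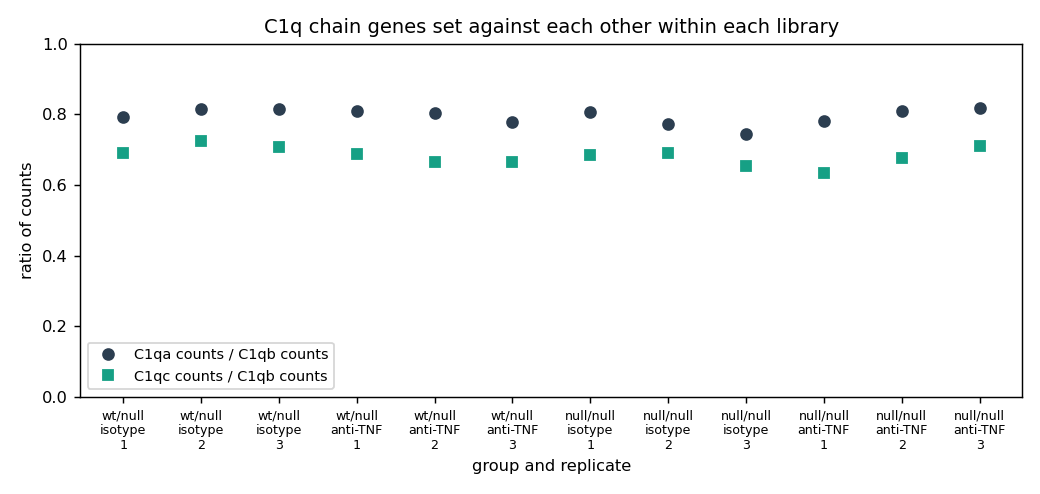
Counts of C1qa (circles) and C1qc (squares) divided by the counts of C1qb in the same library (y axis, a ratio, from 0 to 1) for each of the 12 libraries (x axis, group and replicate). The circles lie between 0.746 and 0.819 and the squares between 0.633 and 0.724 in all 4 groups.

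Because the C1q genes varied together, the windows at the starts of C1qb and C1qc are shown, with the window of C5ar1, the gene with the smallest unadjusted p of the 9 between the genotypes. The windows hold 250 bases before and 50 after the RefSeq start of the gene (GRCm38.p6), read on the minus strand, and capitals mark matches to the motifs searched. They span chr4:136886151-136886450 for C1qb, chr4:136892865-136893164 for C1qc and chr7:16259289-16259588 for C5ar1.
C1qb: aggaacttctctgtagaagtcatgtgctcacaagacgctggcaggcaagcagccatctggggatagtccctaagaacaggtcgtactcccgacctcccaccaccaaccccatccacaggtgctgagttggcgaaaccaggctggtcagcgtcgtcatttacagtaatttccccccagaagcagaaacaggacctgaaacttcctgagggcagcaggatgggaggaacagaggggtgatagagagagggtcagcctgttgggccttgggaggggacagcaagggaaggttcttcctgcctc
C1qc: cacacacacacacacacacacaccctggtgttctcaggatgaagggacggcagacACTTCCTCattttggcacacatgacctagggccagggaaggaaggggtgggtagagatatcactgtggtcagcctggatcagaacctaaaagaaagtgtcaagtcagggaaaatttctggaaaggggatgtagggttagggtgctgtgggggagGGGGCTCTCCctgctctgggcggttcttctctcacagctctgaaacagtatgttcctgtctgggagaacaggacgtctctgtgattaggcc
C5ar1: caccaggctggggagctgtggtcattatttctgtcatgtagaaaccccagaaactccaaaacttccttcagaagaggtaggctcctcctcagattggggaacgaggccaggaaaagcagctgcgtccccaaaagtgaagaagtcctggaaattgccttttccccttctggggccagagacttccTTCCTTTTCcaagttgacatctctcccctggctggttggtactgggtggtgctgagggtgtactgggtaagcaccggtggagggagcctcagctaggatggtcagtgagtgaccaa
Windows of 6 of the 9 genes were found in the table of starts (C1qb, C1qc, C3, Cfp, C3ar1 and C5ar1) and searched on both strands for 5 motifs. The interferon-γ activated site TTCNNNGAA was in none of the 6 windows and in 8.3% of all 32851 windows of this length. The core of the interferon-stimulated response element, GAAANNGAA, was in the C5ar1 window, on the minus strand of the printed sequence, starting 66 bases before the start, and in 8.56% of all windows. The NF-kB consensus matched the C1qc window, starting 41 bases before the start, and 4.51% of all windows. GAGGAAGT, the site of the myeloid factor PU.1, also matched the C1qc window, on the other strand, 195 bases before the start, and 3.2% of all windows. TGCTGAC, part of the site of MAF factors, was in none of the 6 and in 4.67% of all. A match describes the letters in these windows and does not show binding.

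C3, the protein that all activation routes cleave, was at 234, 296 and 283 CPM in wt/null isotype and 220, 362 and 216 CPM in wt/null anti-TNF libraries. It was at 294, 302 and 326 CPM in null/null isotype and 245, 232 and 191 CPM in null/null anti-TNF libraries. In null/null mice the 3 anti-TNF libraries lay below the 3 isotype libraries, and in wt/null mice the groups overlapped, with the highest value of all 12 in wt/null anti-TNF replicate 2, which stands apart. The group means ran from 223 ± 28.3 CPM (SD, n = 3) in null/null anti-TNF over 266 ± 83.1 in wt/null anti-TNF and 271 ± 32.5 in wt/null isotype to 307 ± 16.9 in null/null isotype. The middle pair differed by less than their SDs. The gene lies at chr17:57203970-57228136 on the minus strand.

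C4b encodes complement C4, which C1q-bound proteases cleave. It was at 174, 226 and 108 CPM in wt/null isotype and 215, 229 and 94.9 CPM in wt/null anti-TNF libraries. It was at 159, 140 and 237 CPM in null/null isotype and 264, 272 and 91.6 CPM in null/null anti-TNF libraries. All 4 groups overlapped, and the lowest library of each was the one titled 46. C4a, a near-identical copy of C4b, had 5 to 20 counts per library, against 2414 to 6984 for C4b. The C4b level is uncertain to the extent that reads could fall to either copy, since the counting method is not given in the sources used here.

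Cfb encodes factor B, the protease of the alternative route. It was at 219, 182 and 217 CPM in wt/null isotype and 198, 590 and 197 CPM in wt/null anti-TNF libraries. It was at 124, 217 and 259 CPM in null/null isotype and 371, 167 and 162 CPM in null/null anti-TNF libraries. The 590 and 371 CPM belonged to the 2 libraries that stand apart, and the other 10 spanned 124 to 259 CPM. Cfb varied most of the 9 genes, 4.75-fold from lowest to highest, with a coefficient of variation of 51.9%. C4b, C4a, Cfb and C2 lie in a stretch of 170 kb at chr17:34728380-34898265. In the GENCODE annotation Cfb shares 6107 bases on the same strand with Gm20547, a gene model that runs through it. Gm20547 is not among the symbols of the deposited counts, and reads of the pair cannot be separated here.

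Cfp encodes properdin, which stabilises the alternative C3-cleaving enzyme. It was at 125, 161 and 301 CPM in wt/null isotype and 134, 193 and 272 CPM in wt/null anti-TNF libraries. It was at 215, 240 and 277 CPM in null/null isotype and 318, 196 and 239 CPM in null/null anti-TNF libraries. Groups overlapped, and in both wt/null groups the library titled 46 was the highest. The highest of all 12, null/null anti-TNF replicate 1, stands apart.

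C3ar1 encodes the receptor of C3a. It ranged from 531 to 771 CPM, 1.45-fold, with group means of 585 ± 48.6 CPM (SD, n = 3) in null/null isotype, 619 ± 74.0 in wt/null isotype, 626 ± 83.1 in null/null anti-TNF and 657 ± 121 in wt/null anti-TNF. Neighbours in that order differed by less than their SDs. Its 2 highest values, 771 and 721 CPM, were in the libraries that stand apart, against at most 669 CPM in the other 10.

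C5ar1 encodes the receptor of C5a, which draws myeloid cells to sites of complement activation. It was at 99.0, 113 and 141 CPM in wt/null isotype and 94.97, 87.6 and 128 CPM in wt/null anti-TNF libraries. It was at 139, 147 and 141 CPM in null/null isotype and 124, 130 and 137 CPM in null/null anti-TNF libraries. The null/null libraries were close together, at 142 ± 4.19 CPM (SD, n = 3) with isotype and 130 ± 6.81 with anti-TNF. The wt/null libraries were spread more widely, at 118 ± 21.6 with isotype and 104 ± 21.6 with anti-TNF, and in both the library titled 46 lay within the null/null range of 124 to 147 CPM. The order of means was wt/null anti-TNF, wt/null isotype, null/null anti-TNF and null/null isotype. Of its neighbours, the 2 wt/null groups differed by less than their SDs, wt/null isotype and null/null anti-TNF by less than the SD of the former, and the 2 null/null groups did not overlap.

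Levels of different genes can be compared only per length, here as CPM per kb of exon (GENCODE annotation, union of exons). That union can be longer than the transcripts present in the cells, so these levels are approximate. On that scale C1qb was at 3599 ± 343 CPM per kb (SD, n = 12), C1qa at 2991 ± 239 and C1qc at 1382 ± 118, the 3 highest of the complement genes listed. Calr, encoding calreticulin, a surface partner of C1q, followed at 358 ± 43.0 CPM per kb. Of the other members, C3ar1 was at 144 ± 18.1 CPM per kb, Cfp at 128 ± 36.5, Cfb at 85.6 ± 44.4, C3 at 51.9 ± 9.97, C5ar1 at 48.1 ± 7.84 and C4b at 32.3 ± 11.4. The ranges of C3, C5ar1, C4b and Cfb overlapped, as did those of C3ar1, Cfp and Cfb.

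**Figure D3:**
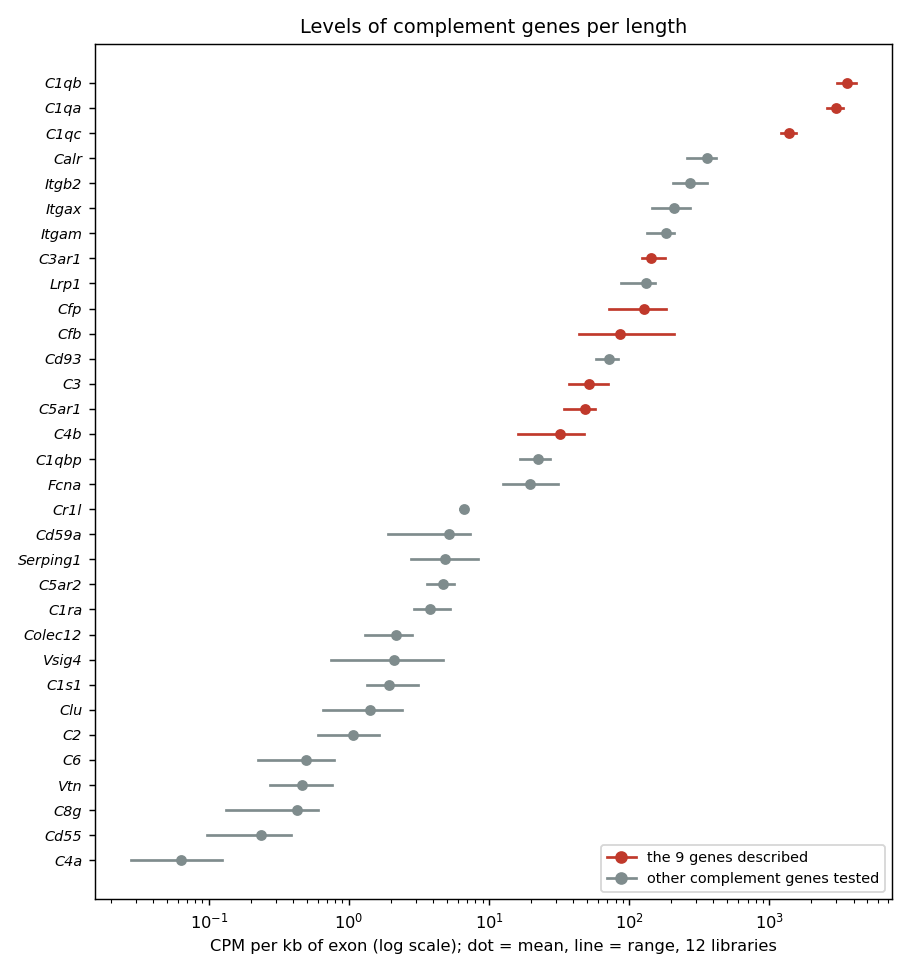
Level of the 9 complement genes and of other complement genes tested, in CPM per kb of exon on a log axis, with a dot for the mean and a line for the range over 12 libraries. The 3 C1q genes reach 1210.5 CPM per kb or more in every library, and no other gene drawn exceeds 419.

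Between the genotypes, the question was whether cells of null/null mice differed from those of wt/null mice in these genes. Averaged over both antibodies, 0 of the 9 members were called by edgeR, against 0.0077% of all genes tested, which is 1 gene, Ifngr1. DESeq2 and limma voom called 0 of the 9 here and in the other comparisons of the groups. At an unadjusted p below 0.05 there was 1 member, C5ar1, beside 2.46% of all genes. The estimates of the 9, as null/null against wt/null, had a median log2 fold change of 0.02, with 6 above 0, beside a median of 0.00 over all genes. C1qa had a log2 fold change of 0.02 (95% interval -0.15 to 0.20), C1qb of 0.05 (-0.14 to 0.24) and C1qc of 0.02 (-0.16 to 0.20). Differences of the C1q genes beyond 0.24 on the log2 scale lie outside these intervals. The intervals of C4b (-0.58 to 0.87), Cfb (-1.02 to 0.48) and Cfp (-0.20 to 0.85) were wider.

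C5ar1 had a median of 106 CPM in the 6 wt/null libraries (87.6 to 141) and of 138 CPM in the 6 null/null libraries (124 to 147). The genotypes overlapped through the wt/null libraries titled 46, but within each antibody and title number every null/null library lay above the wt/null ones. The share of all genes that show this order was not counted. The averaged log2 fold change was 0.30 ± 0.10 (SE, 95% interval 0.08 to 0.52, unadjusted p = 0.0131, adjusted p = 0.9996). By an exact permutation of genotype within antibody the two-sided p was 0.035, unadjusted, with 0.005 the smallest that the 400 arrangements can give. Without the 2 libraries that stand apart the exact p was 0.0667, where 120 arrangements allow 0.0167. In a test added after the data had been seen, genotype was permuted within antibody and title number, which gave 0.0139, the smallest that 144 exact arrangements allow. With the letter of the title as a further division, the null/null library was the higher of 6 of 6 pairs, and the exact permutation p was 0.03125, the smallest of 64 arrangements. These last exact p follow from the order seen within antibody and title number, so they are no separate support. What the letters stand for is not stated. With the title number, or the number and letter, in the edgeR model the log2 fold change was 0.32 and C5ar1 was not called, and in the 8 libraries titled 40 alone it was 0.44. Of the other 8 members, the exact p ran from 0.165 for Cfp upward.

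Under the isotype antibody alone, 0 members were called (0.0077% of all genes), and 0 had an unadjusted p below 0.05 (1.8% of all genes). Under anti-TNF, 0 were called (0.0077%), and C5ar1 alone had an unadjusted p below 0.05, of 0.0434, beside 1.98% of all genes. These 2 comparisons gave C5ar1 log2 fold changes of 0.27 ± 0.15 and 0.33 ± 0.15 (SE).

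Between the antibodies, the question was whether neutralising TNF altered these genes. Averaged over genotypes, edgeR called 0 of the 9 members and 0% of all genes, and 0 members had an unadjusted p below 0.05, beside 7.31% of all genes. The averaged log2 fold changes, as anti-TNF against isotype, were 0.03 for C1qa (95% interval -0.14 to 0.21), 0.02 for C1qb (-0.17 to 0.20) and -0.03 for C1qc (-0.21 to 0.15). C3 had the smallest unadjusted p of the 9, with a log2 fold change of -0.25 ± 0.13 (SE, 95% interval -0.53 to 0.03, adjusted p = 0.661). Its median was 295 CPM in the 6 isotype libraries (234 to 326) and 226 CPM in the 6 anti-TNF libraries (191 to 362). The exact permutation of antibody within genotype gave p = 0.095. Permuted within genotype and title number, a division added after the data had been seen, the exact p was 0.139 for C3. For C5ar1, lower under anti-TNF, it was 0.0139, the smallest of 144 arrangements, against 0.165 within genotype alone. Permuted within genotype in the 10 libraries other than those that stand apart, C5ar1 had an exact p of 0.46. Its difference there was -0.09 on the log2 scale, against -0.16 with all 12 libraries. The averaged edgeR log2 fold change of C5ar1 was -0.16 ± 0.10 (SE, adjusted p = 0.683).

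Without the 2 libraries that stand apart, the remaining 4 anti-TNF libraries had C3 at 191 to 232 CPM, all below the 6 isotype libraries at 234 to 326 CPM. The 2 nearest libraries across that boundary were 232 and 234 CPM. Of all genes tested, 0.593% showed such a gap downward in the same 10 libraries. The exact p on these 10 was 0.01, the smallest that 100 arrangements can give, and the difference was -0.43 on the log2 scale. The edgeR fit on them gave the same log2 fold change of -0.43 with an adjusted p of 0.9996. The 2 libraries were set aside on account of earlier results of these data, and C3 was singled out after its values were seen. In the libraries titled 40 alone, which include both, the log2 fold change was -0.12, and with the title number in the model -0.26. The marker sums given above moved with these 2 libraries, and their part in the C3 values was not tested.

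In wt/null mice, 0 members were called (0% of all genes) and 0 had an unadjusted p below 0.05 (4.48%). In null/null mice, 0 were called (0%), and C3 alone had an unadjusted p below 0.05 (3.48% of all genes), with a log2 fold change of -0.46 ± 0.18 (SE, unadjusted p = 0.0253, adjusted p = 0.947). Both C3 and C5ar1 were lower under anti-TNF with no overlap in null/null mice, 2 of the 9, beside 4.55% of all genes. The smallest two-sided p that 3 libraries against 3 can give by exact permutation is 0.1. C5ar1 there had a log2 fold change of -0.13 ± 0.15.

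Cfb had the largest averaged antibody estimate of the 9, a log2 fold change of 0.45 ± 0.34 (SE, 95% interval -0.30 to 1.20, adjusted p = 0.714). The 4 anti-TNF libraries other than those that stand apart had 162 to 198 CPM, within the isotype range of 124 to 259 CPM, and without the 2 the log2 fold change was -0.17. The dendritic cell markers Clec10a and Cd209a reached 220 and 124 CPM in wt/null anti-TNF replicate 2 and 211 and 97.8 CPM in null/null anti-TNF replicate 1, and were at most 151 and 65.8 CPM elsewhere. Tnf itself was at 105 CPM in the first of these and 42.1 CPM in the second, against 20.7 to 40.8 CPM elsewhere. The part of these in the Cfb level was not tested.

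For both perturbations against neither, null/null anti-TNF against wt/null isotype, 0 members were called (0.0077% of all genes) and 0 had an unadjusted p below 0.05 (2.13%). For the interaction, the difference between the antibody effects of the genotypes, 0 were called (0%) and 0 had an unadjusted p below 0.05 (1.51%). The antibody effect on C3, past an unadjusted p of 0.05 in null/null mice only, was therefore not shown to differ between the genotypes: the interaction was -0.44 ± 0.26 on the log2 scale (SE, 95% interval -0.99 to 0.12, adjusted p = 0.9998). With each library left out in turn it ran from -0.56 to -0.15, the latter without wt/null anti-TNF replicate 2, and it was -0.22 without both libraries that stand apart.

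**Figure D4:**
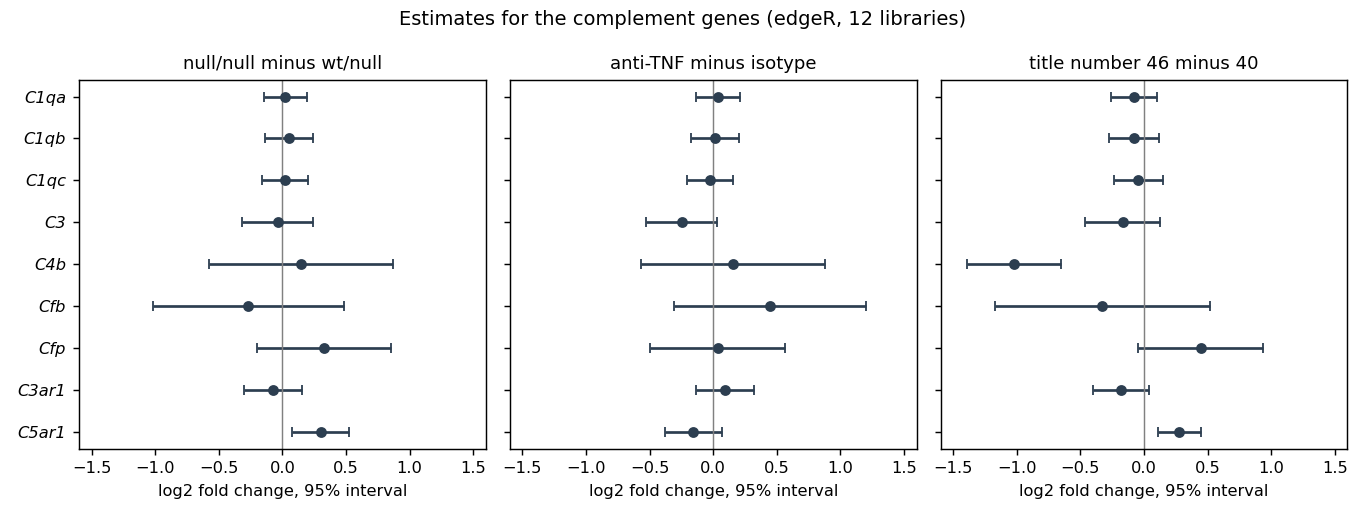
Log2 fold change of the 9 complement genes with 95% intervals (x axis, vertical line at 0) for null/null minus wt/null, anti-TNF minus isotype and title number 46 minus 40, from edgeR on 12 libraries. Only C5ar1 (left and right panels) and C4b (right panel) have intervals that leave out 0, before adjustment, and in the left and middle panels the C1q intervals are the narrowest.

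The libraries titled 46 were also set against those titled 40, with the 4 groups in the model, since the title is the only other division the labels carry. All titles starting with 46 go on with the letter C, and those starting with 40 with A, B or C, so number and letter partly go together. By edgeR 0 of the 9 members were called, against 0.0154% of all genes, which are Adam19 and Rnase4. DESeq2 and limma voom each called 1 member, C4b, among 150 and 110 genes called in all. C4b and C5ar1 had an unadjusted p below 0.05, 2 of 9, beside 9.83% of all genes. The median log2 fold change of the 9 was -0.08, with 2 above 0, beside -0.01 over all genes.

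C4b was at 108, 94.9, 140 and 91.6 CPM in the 4 libraries titled 46, in the order of the groups above. The 8 libraries titled 40 ranged from 159 to 272 CPM with a median of 227 CPM, so all 46 libraries lay below all 40 libraries, which held downward for 0.678% of all genes. The library titled 46 was below both others of its group in 4 of 4 groups, as it was for 2.53% of all genes. The log2 fold change was -1.02 ± 0.17 (SE, 95% interval -1.39 to -0.65, unadjusted p = 9.79e-05, adjusted p = 0.153), the sixth smallest p of all genes. The exact permutation of the title number within groups gave p = 0.0123, the smallest of 81 arrangements. The edgeR adjusted p was 0.0267 without null/null isotype replicate 1 and 0.0105 without null/null isotype replicate 2, and over all alternatives it ran from 4.46e-07 (DESeq2) to 0.682 (without wt/null anti-TNF replicate 3), with log2 fold changes between -1.21 and -0.87. Null/null isotype replicate 2, the library titled 46 with the highest C4b, had a level nearest to its group's lowest other library.

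C5ar1 was at 141, 128, 147 and 137 CPM in the libraries titled 46, above both libraries titled 40 in 4 of 4 groups, as were 2.68% of all genes. The 8 libraries titled 40 ranged from 87.6 to 141 CPM and overlapped these. The log2 fold change was 0.28 ± 0.08 (SE, unadjusted p = 0.00417, adjusted p = 0.277), and the exact p was 0.0123 with all 12 libraries and 0.0556 without the 2 that stand apart. Cfp had a log2 fold change of 0.45 ± 0.22 (adjusted p = 0.536), with the library titled 46 highest in 2 of 4 groups. With each library left out in turn it ran from 0.21, without wt/null isotype replicate 3, to 0.61, without null/null anti-TNF replicate 3. C1qa, C1qb and C1qc had log2 fold changes of -0.08, -0.08 and -0.04.

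The osteoclast-type and muscle markers moved with the title number as well. For the fibroblast and macrophage markers the range in libraries titled 46 lay within that of libraries titled 40. The 7 osteoclast-type markers, led by Acp5 and Ctsk, summed to 1497 to 3577 CPM in the libraries titled 46 and 416 to 2314 CPM in those titled 40, with 7 of 7 estimates higher and 0 called. The muscle markers, led by Acta1, summed to 113 to 134 CPM against 74.9 to 106 CPM. The fibroblast markers summed to 707 to 1124 CPM against 338 to 1773 CPM. The macrophage markers summed to 25349 to 29393 CPM against 24061 to 30704 CPM. The part of these in the C4b and C5ar1 values was not tested.

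**Figure D5:**
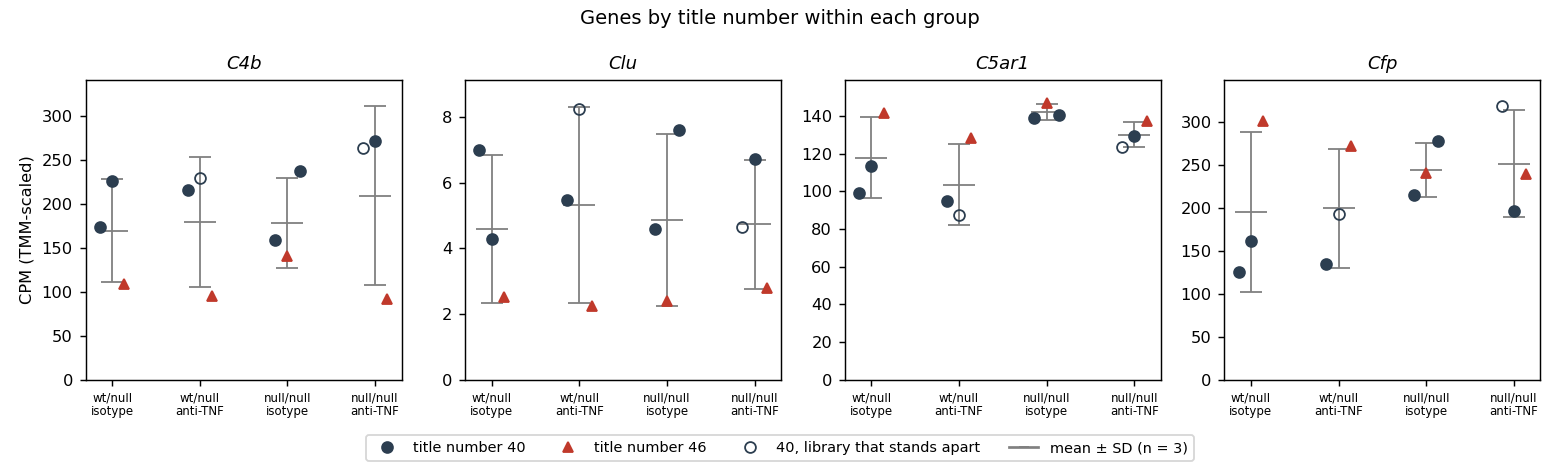
CPM (y axis, from 0) of C4b, Clu, C5ar1 and Cfp in the 4 groups (x axis), with triangles for libraries titled 46, circles for those titled 40, open circles for the 2 libraries that stand apart and bars for the mean ± SD of 3. The triangles of C4b (91.6 to 140 CPM) and Clu are the lowest points of each group and those of C5ar1 (128 to 147 CPM) the highest.

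Of 54 other complement genes listed, 24 passed the filter on low counts: 8 of 23 of the activation cascade, 7 of 21 regulators and 9 of 10 receptors and binding partners. None of the 24 was called by edgeR in any of the 9 comparisons. In the activation list the highest CPM were Fcna (encoding ficolin A, a lectin route sensor) at 26.9 CPM on average, Colec12 at 19.0, C1ra at 11.3 and C1s1 at 6.02, the last 2 encoding the proteases that ride on C1q. C2, the protease partner of C4, was at 2.32 to 6.34 CPM. The other genes of that list included Hc, encoding C5, at 0 to 0.0389 CPM, Cfd, encoding the factor that activates factor B, at 0 to 0.0346 CPM, and C9 at 0 to 0.0428 CPM. Mbl1, Mbl2 and C8b, with C1rb and Colec10, had 0 counts in all 12 libraries. C6, an early part of the membrane attack complex, was at 0.796 to 2.80 CPM. So the receptor of C5a was measured at 87.6 CPM or more in every library, and the transcript of its ligand's precursor at 0.0389 CPM or less.

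Among the regulators, Cr1l, encoding a membrane inhibitor of C3 cleavage in mice, was at 63.8 to 72.5 CPM, Serping1, encoding the C1 inhibitor, at 6.45 to 19.3 CPM, and Cd59a, a membrane guard against the attack complex, at 3.44 to 13.2 CPM. Clu, encoding clusterin, a fluid-phase inhibitor, was at 2.25 to 2.81 CPM in the libraries titled 46 and 4.28 to 8.23 CPM in those titled 40, with a log2 fold change of -1.28 ± 0.22 (SE, unadjusted p = 0.0001, adjusted p = 0.153). Clu was chosen for mention after its values were seen. It was lowest in the library titled 46 in 4 of 4 groups, as C4b was.

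Among receptors and partners, Lrp1, an uptake receptor, Calr, Itgax and Itgam had the highest CPM. Itgax and Itgam encode the α chains of complement receptors 4 and 3, which bind cleaved C3, and were at 695 to 1303 and 674 to 1047 CPM. Itgam also encodes CD11B, which the sort selected. The estimates for anti-TNF against isotype in wt/null mice were below 0 for 9 of the 9 receptors tested, with a median log2 fold change of -0.13 beside 0.00 over all genes, and 1 of them, Lrp1, had an unadjusted p below 0.05 (4.48% of all genes). In null/null mice 7 of the 9 were below 0, with a median of -0.10. Between the genotypes, averaged over antibody, 8 of the 9 were above 0. The wt/null anti-TNF group holds one of the libraries that stand apart, and in those 2 the receptor list summed to 4749 to 5806 CPM against 6120 to 7416 CPM in the other 10. In wt/null mice the list summed to 6120, 4749 and 7063 CPM under anti-TNF, against 6643 to 7040 CPM with isotype. The 4749 CPM belonged to replicate 2, which stands apart. All 9 signs include that library, and estimates of the receptors without it are not given here.

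Genes whose pattern over the 12 libraries came nearest to each member were found by the root mean square difference of centred log2 CPM among 7289 other tested genes. Since they were picked on these same libraries, differences like those of the member are built into the choice and are no separate support. For the mean of the C1q genes these were Ergic3 (0.04), Wbp2 (0.04) and Scamp2 (0.05), beside a median of 0.18 over all candidates. The C1q mean itself deviated by 0.12 from a flat line. For C4b they were Adam19 (0.25), Rnase4 (0.28) and Ccl8 (0.32), beside a median of 0.56. Adam19, encoding a membrane protease, was at 70.9 to 115 CPM in the libraries titled 46 and 167 to 201 CPM in those titled 40, and is one of the 2 genes called between them, with a log2 fold change of -1.12 ± 0.11 (SE, adjusted p = 0.00815). Rnase4, encoding a secreted ribonuclease, was the other, with a log2 fold change of -0.67 ± 0.09 (adjusted p = 0.0444). For Cfb the nearest were Ly6e (0.16), Sirpb1b (0.17) and Cd274 (0.17), beside a median of 0.57. Cd274, encoding PD-L1, was at 88.3 and 45.8 CPM in the 2 libraries that stand apart and 21.9 to 34.6 CPM in the other 10.

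For C3 the nearest were Hk3, Triobp and Wdr24 (0.17 to 0.18), against a deviation of C3 itself of 0.27. For Cfp they were Gsr, Ccl6 and Cebpb (0.20 to 0.24). For C3ar1 they were B3gnt8, Ncoa3 and Ms4a7 (all 0.07). For C5ar1 they were Pik3r5, Sh2b2 and Snx8 (all 0.13). Sh2b2, encoding a signalling adaptor, had an averaged genotype log2 fold change of 0.34 ± 0.08 (SE, unadjusted p = 0.00063), beside 0.30 ± 0.10 for C5ar1, and neither was called. Sh2b2 was picked for its likeness to C5ar1 in these libraries, so a similar genotype estimate is built into the choice.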

How the data were processed

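The authors deposited raw counts per gene symbol for all 12 libraries, not normalized, and each of the 12 columns carries a sample's title. The submitters' processing notes name bcl2fastq 2.20, STAR, Bowtie and the mouse build mm10. The counting tool, strand setting and annotation are not given in the sources used here. Per the labels' protocols, libraries were made with a stranded mRNA kit and sequenced as paired ends.

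Genes kept by filterByExpr (12981 of 24421) were scaled by TMM and fitted with edgeR 4.0.16 (R 4.3.3): the robust quasi-likelihood method on 12 libraries, with a mean for each of 4 groups, two-sided tests, adjustment over all genes tested. The biological coefficient of variation was 0.179. The title number was tested with the groups as covariates. Log2 CPM used a prior count of 2, and levels per gene were also compared by exact permutation within strata, for 9 genes and 3 divisions, with unadjusted p. Permutation within title number, and with its letter, was added after the data had been seen. Replicates were numbered in the order of listing, so numbers pair nothing. The 9 genes, the other lists and the 2 libraries that stand apart were chosen with earlier results of these data known. Genes named beside the 9 were those called, the 4 of highest mean CPM in each other complement list, the 2 of highest in each marker list named, and the 3 nearest in pattern whose average log2 CPM reached 4. Exceptions are marked or given as absent genes, and 1 gene of the regulators is not reported here.

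Positions and exon lengths came from the GENCODE annotation of GRCm38, the same build as mm10, and promoter windows from RefSeq (GRCm38.p6). The alternatives were DESeq2 1.42.0, limma 3.58.1 voom with sample weights, another scaling, 2 filters, subsets of libraries and each library left out. The procedure was tested on simulated data.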

Additional observations from a re-analysis of the deposited data

How the results depend on the processing

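The 9 genes in 9 comparisons gave 81 log2 fold changes and 1719 values under alternatives. Of these, 1578 kept their sign without being called, 137 changed sign without being called, and 4 were called, all for C4b by title number. No called value reversed. Members called by title number were 1 under DESeq2 and 1 under limma voom, against 0 in edgeR, and 0 to 1 with each library left out, 1 without null/null isotype replicate 1 or replicate 2. Without the 2 libraries that stand apart, the members past an exact p of 0.05 were 0 by genotype (1 with all libraries), 1 by antibody (0 with all) and 1 by title number (2 with all). Permuted also within title number, a choice made after seeing the data, they were 1 by genotype and 1 by antibody, C5ar1 in both.

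Counts over all genes moved more. By title number 2 genes were called by edgeR, 150 by DESeq2, 110 by limma voom, 82 without the 2 libraries, and 0 to 86 with 1 library left out (86 without null/null isotype replicate 2, 0 without replicate 3 of either wt/null group). By genotype averaged DESeq2 called 4 against 1, under each antibody 2 against 1, and by antibody averaged 14 against 0. Genotype under each antibody, and both against neither, gave 0 against 1 in libraries titled 40 alone, as did genotype under anti-TNF and both against neither when fitted on their 2 groups only. Antibody in null/null gave 1 against 0 when fitted on its 2 groups only. The causes were not tested. Replicate numbers follow the order of listing and pair nothing. In place of a block, the title number was fitted as a term, and, added after seeing the data, the title number and letter, with 0 members called in each of the 8 comparisons of groups under both. With 3 libraries a group, the interval of C4b does not leave out a difference of 0.5 on the log2 scale between genotypes in either direction. That of Cfb does not leave out 0.5 lower in null/null mice, and those of Cfp and C5ar1 do not leave out 0.5 higher.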
